A study of Homo sapiens with 6 samples.

Results

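Glutathione peroxidases and peroxiredoxins are the main enzymes with which human cells reduce hydrogen peroxide and organic peroxides. The genes described here are GPX1, GPX2, GPX3 and GPX4 and the peroxiredoxin genes PRDX1 to PRDX6. They were chosen by name, and all non-control probes that carry one of these names were taken, which gave 12 probes for 10 genes out of 41000 probes and 29123 gene names on the array. The names were proposed with the ratios of these arrays already known, so the members' ratios are given below as a description with no test.

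Expression was measured on 6 Agilent 2-colour arrays in SKOV3 and A2780s, which are established human ovarian cancer cell lines. In SKOV3, clones carrying a lentiviral pLKO.1-puro shRNA against Hic-5 (sh-S1 and sh-S2) and selected with puromycin were each hybridized against a Ctrl clone with the same vector and a scramble sequence, on a pair of dye-swapped arrays for each clone. In A2780s, a clone stably transfected with pCMV-Hic-5 and selected with neomycin was hybridized in the same way against an empty-vector Ctrl clone, on 2 arrays. Hic-5, encoded by TGFB1I1, is an adaptor protein of focal adhesions. Each condition is 1 clone of 1 line, and the labels do not say which of the shRNAs is in sh-S1 and which is in sh-S2. Because the dye-swapped arrays of a clone repeat the same hybridization, they were averaged to 1 replicate, so n was 2 clones in SKOV3, both set against 1 Ctrl RNA, and 1 in A2780s.

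Glutathione peroxidases use glutathione as the electron donor, and GPX1 to GPX4 carry selenocysteine at the active site, so they depend on selenium and on the selenoprotein synthesis machinery. Peroxiredoxins use a cysteine that is oxidized by the peroxide and then reduced, in most of the family by thioredoxin and thioredoxin reductase. In tumor cells both families are known as a defence against oxidative stress, and GPX4 as the enzyme that holds back lipid peroxidation and ferroptosis.

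The probes are 60 bases long and their positions are those of hg19 in the array files. GPX1 was read by 1 probe (A_23_P250671, chr3:49394621-49394680, minus strand). Its final 30 bases are shown because the whole account of GPX1 rests on this probe, with the polyadenylation signal motif AATAAA in capitals, which lies within bases 31 to 60 of the probe.
GPX1 probe A_23_P250671, bases 31 to 60: aggcgagtttccccactAATAAAgtgccgg
PRDX5 had 2 probes that share 33 bases, shown in capitals, so they are not independent readings. Both span 577 bases of chromosome 11, at chr11:64088488-64089064 and chr11:64088515-64089091, and therefore cross a splice junction; 4 of the 12 probes do so in all, these included.
PRDX5 probe A_24_P155378: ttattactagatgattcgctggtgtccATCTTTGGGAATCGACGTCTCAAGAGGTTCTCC
PRDX5 probe A_23_P12989: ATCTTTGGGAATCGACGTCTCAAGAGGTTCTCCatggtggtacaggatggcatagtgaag
PRDX2 had 2 probes at separate places on chromosome 19, A_23_P142045 at chr19:12907879-12907938 and A_24_P168416 at chr19:12911978-12912037, both on the minus strand. The sequence of the latter is shown because the probes of PRDX2 differ in their ratios.
PRDX2 probe A_24_P168416: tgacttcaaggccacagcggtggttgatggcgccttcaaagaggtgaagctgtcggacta
The remaining probes are A_23_P3038 for GPX2, A_23_P133474 for GPX3, A_23_P28075 for GPX4, A_23_P11995 for PRDX1, A_23_P63751 for PRDX3, A_23_P114232 for PRDX4 and A_23_P983 for PRDX6.

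Some facts of the arrays bear on every member. On its array probe A_23_P141055, TGFB1I1 was not lower in the SKOV3 RNAs labelled as shRNA clones, with a mean log2 ratio of 0.03 ± 0.07 (SD, n = 2 clones). The directions given for these RNAs therefore rest on their labels. The paper reports that the shRNA clones were chosen by their Hic-5 RNA and protein, measured apart from these arrays. In pCMV-Hic-5 TGFB1I1 was higher, at 4.05 and 2.60 on the 2 arrays. On the SKOV3 arrays the median signal over local background was 373 to 530.5 in Cy3 and only 9.52 to 25.5 in Cy5. Of the ovarian carcinoma markers, 5 of the 6 tested (KRT8, KRT18, KRT19, PAX8 and ERBB2) were lower in these RNAs, and the summed log2 level of all 7 was 83.6 in SKOV3 Ctrl, 69.9 in sh-S1, 69.0 in sh-S2 and 62.5 in A2780s Ctrl. Over the leukocyte list the summed log2 level was 31.9 to 33.0 in all 5 RNAs, and over the endothelial list it was 19.9 to 20.3. PECAM1 was well above background on 1 of 12 channels. CDH5 and VWF each were on 2 of 4 channels in SKOV3 Ctrl, on 1 in either SKOV3 clone and on 2 in either A2780s RNA. Over the fibroblast list the summed level was 39.5 in SKOV3 Ctrl and 42.8 to 44.0 in the other RNAs. In the SKOV3 clones COL3A1 was higher by 3.65, with its probes from 1.12 to 3.65. COL1A1, COL1A2 and DCN had ratios of -0.14, 0.16 and 0.07 there, and LUM was not tested. The part of these differences in the members' ratios was not tested. By the barcodes in the array files the 4 SKOV3 arrays lay on 1 slide and the 2 A2780s arrays on another, each slide with a scan of its own, and an effect of the slide and one of the line cannot be told apart.

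GPX1, the cytosolic and mitochondrial selenoenzyme that reduces hydrogen peroxide, was far lower in both SKOV3 clones. Before any normalization its Cy3 signal over background was 97519 and 81801 intensity units in Ctrl and 2114 and 2103 units in the clones sh-S1 and sh-S2. In Cy5 the corresponding signals were 11524 and 13451 units in Ctrl and 114 and 128 units in the clones. The groups did not overlap in either dye, no spot was saturated, and every channel was well above background.

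After normalization, the log2 ratio of GPX1 for sh-S1 was -4.25 when the clone was labelled with Cy5 and -6.08 when it was labelled with Cy3. For sh-S2 it was -4.45 and -6.44 in the same order, and pairs of ratios below keep this order. The clones thus lay close together at -5.17 and -5.45, while the dye orientations of either clone lay further apart than the clones did. The mean was -5.31 ± 0.20 (SD, n = 2 clones), or 39.6-fold lower. Across the alternatives of processing the mean lay between -6.26 and -4.35. In the A2780s clone with pCMV-Hic-5 the ratios of GPX1 were -0.03 and 0.17, on both sides of 0. In RNA of whole cultures, fewer cells that express a gene and less RNA per cell cannot be told apart.

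The ratios of the other selenium-dependent glutathione peroxidases lay much nearer to 0 than those of GPX1. GPX4, the phospholipid hydroperoxide glutathione peroxidase (chr19:1105797-1106421), had log2 ratios of -1.38 with sh-S1 and -0.87 with sh-S2 when the clone was labelled with Cy5. When it was labelled with Cy3 they were 0.19 and 0.18, so the direction turned with the dye in both clones. Its mean was -0.47 ± 0.18 (SD, n = 2 clones), short of 2-fold. In A2780s it was 0.71 and 0.27, higher on both arrays with a mean of 0.49, short of 1.5-fold.

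GPX3, the secreted enzyme of plasma, and GPX2, known from gastrointestinal epithelium, gave dim signals. GPX3 was well above background on 3 of 4 channels in SKOV3 Ctrl, on 1 of 2 in sh-S1 and on both in sh-S2, through which it entered the test. Its ratios were 0.16 and -0.13 for sh-S1 and 0.06 and -0.10 for sh-S2, with a mean of -0.00 ± 0.02 (SD, n = 2 clones). GPX2 was well above background on 3 of 4 channels in Ctrl and on 1 of 2 in each clone, and it was left out of the SKOV3 test for that reason. Its ratios in the clones ran from -0.05 to 0.18. In A2780s both genes were well above background on all channels, with ratios of 0.21 and 0.24 for GPX3 and of -0.06 and -0.27 for GPX2.

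**Figure D1:**
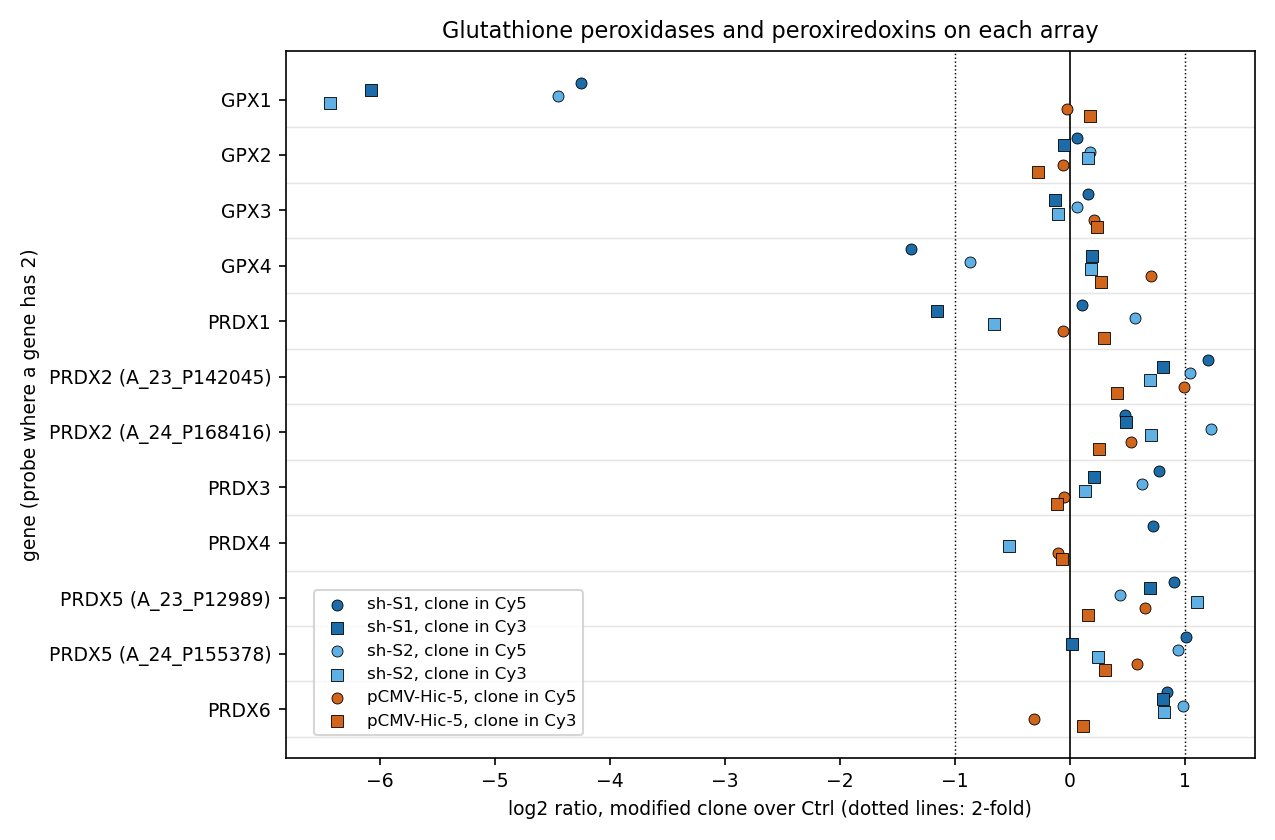
Log2 ratios of modified clone over Ctrl (x axis) for the 12 probes (y axis) on each of the 6 arrays, with circles for arrays with the clone in Cy5, squares for the clone in Cy3, dark blue for sh-S1, light blue for sh-S2 and orange for pCMV-Hic-5. GPX1 lies between -6.44 and -4.25 in the SKOV3 clones and near 0 in pCMV-Hic-5, while PRDX2, PRDX3, PRDX5 and PRDX6 lie above 0 on all SKOV3 arrays. The 2 outlier-flagged spots of PRDX4 are not drawn.

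The peroxiredoxins were, apart from PRDX1 and PRDX4, moderately higher in the SKOV3 clones. Of 7 tested probes of 5 genes, 6 were higher than Ctrl on all 4 arrays, against 18.5% of all probes tested, and their mean ratios were short of 2-fold in every case. Among all tested member probes, 1 (GPX1) was lower on all 4 arrays, against 19.5% of all probes tested. The median log2 ratio of the 7 probes was 0.73, against 0.00 over the 24955 probes tested. Because the genes were chosen with these ratios known, the counts describe them and no more.

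PRDX6, the 1-Cys peroxiredoxin that takes its electrons from glutathione, had the most even ratios. They were 0.84 and 0.82 for sh-S1 and 0.99 and 0.82 for sh-S2, with a mean of 0.87 ± 0.05 (SD, n = 2 clones), or 1.82-fold. All 4 arrays gave nearly one value, in both dye orientations. In A2780s the ratios were -0.31 and 0.11, on both sides of 0.

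PRDX2, a cytosolic 2-Cys peroxiredoxin abundant in red blood cells, was higher on each SKOV3 array with both of its probes. With A_23_P142045 the ratios were 1.20 and 0.81 for sh-S1 and 1.04 and 0.70 for sh-S2, with a mean of 0.94 ± 0.10 (SD, n = 2 clones), or 1.92-fold. With A_24_P168416 they were 0.48 and 0.49 for sh-S1 and 1.23 and 0.71 for sh-S2, with a mean of 0.73 ± 0.34 (SD, n = 2 clones). The probes thus ordered the clones differently, the former with sh-S1 higher and the latter with sh-S2 higher. In A2780s, PRDX2 was the member with the largest mean ratio, with 1.00 and 0.41 on the arrays of A_23_P142045, a mean of 0.71 or 1.63-fold. The other probe gave 0.54 and 0.25 there, a mean of 0.39 that stayed short of 1.5-fold.

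PRDX5, an atypical 2-Cys peroxiredoxin of mitochondria, peroxisomes and cytosol, had a mean of 0.79 ± 0.02 (SD, n = 2 clones) with A_23_P12989 and of 0.55 ± 0.05 (SD, n = 2 clones) with A_24_P155378. With the former, the ratios were 0.90 and 0.70 for sh-S1 and 0.44 and 1.10 for sh-S2. With the latter, they were 1.02 and 0.02 for sh-S1 and 0.94 and 0.24 for sh-S2. The array with sh-S1 in Cy3 thus gave almost no difference with 1 of these overlapping probes. In A2780s the probes gave 0.65 and 0.16, and 0.59 and 0.30, all above 0, with means of 0.40 and 0.44 that were short of 1.5-fold.

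PRDX3, the mitochondrial 2-Cys peroxiredoxin (chr10:120931917-120931976), had ratios of 0.77 and 0.21 for sh-S1 and of 0.63 and 0.13 for sh-S2. Its mean was 0.44 ± 0.08 (SD, n = 2 clones), and the clones in Cy5 were higher than the clones in Cy3. In A2780s it was -0.05 and -0.11.

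PRDX1, the other cytosolic 2-Cys peroxiredoxin (chr1:45980295-45980589), was split by dye in the SKOV3 clones. It had ratios of 0.11 for sh-S1 and 0.56 for sh-S2 with the clone in Cy5, and of -1.15 and -0.66 with the clone in Cy3. The mean of -0.28 ± 0.34 (SD, n = 2 clones) was smaller than its SD. In A2780s the ratios were -0.06 and 0.30.

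PRDX4, the peroxiredoxin of the endoplasmic reticulum (chrX:23700566-23700625), could not be tested in SKOV3. Its spots carried an outlier flag on the arrays with sh-S1 in Cy3 and with sh-S2 in Cy5, and the arrays that remained gave 0.72 for sh-S1 in Cy5 and -0.53 for sh-S2 in Cy3. With the flagged spots kept, a choice made after seeing the data, the ratios were 0.70 and -0.24 for sh-S1 and 0.38 and -0.46 for sh-S2, with a mean of 0.09 ± 0.19 (SD, n = 2 clones). Here too the direction followed the dye and not the clone. In A2780s the ratios were -0.11 and -0.07.

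Set against the call rule of SKOV3, limma's adjusted p of at most 0.05 and at least 2-fold, 1 of the 10 tested probes was called lower (GPX1), where 4.16% of all probes tested were called lower, and 0 were called higher, where 2.97% of all probes were. Since these ratios entered the choice of the genes, nothing is read from these counts. In A2780s, where 1 replicate allows no test, 1 of 12 probes passed the rule of at least 1.5-fold with the same direction on both arrays (PRDX2, A_23_P142045, higher), where 3.26% of all 30530 probes passed it higher and 1.32% lower. On both A2780s arrays 6 of the 12 probes were above 0, against 31.2% of all probes, and 3 (GPX2, PRDX3 and PRDX4) were below 0, against 28.5%.

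Levels of single probes were then ordered over the 5 RNAs, and where a pair of levels is given Cy3 comes before Cy5. The log2 level of GPX1 was highest in SKOV3 Ctrl, at 15.39 and 15.31 in Cy3 and 16.36 and 16.24 in Cy5. It was 10.28 and 11.13 in sh-S1 and 9.80 and 10.86 in sh-S2. In A2780s Ctrl it was 8.25 and 7.81, and in pCMV-Hic-5 it was 7.98 and 8.22. The channels of sh-S1 and sh-S2 overlapped, as did those of the 2 A2780s RNAs, whereas SKOV3 Ctrl, the SKOV3 clones and the A2780s RNAs did not overlap with each other. The clones thus lay between the Ctrl RNAs of the cell lines, with a mean level of 10.5 against 15.8 in SKOV3 Ctrl and 8.03 in A2780s Ctrl.

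PRDX6 showed the opposite order, with SKOV3 Ctrl apart from and below the other RNAs. Its log2 level was 13.85 to 14.14 on the 4 channels of SKOV3 Ctrl, 14.66 and 14.98 in sh-S1, 14.88 and 14.96 in sh-S2, 15.21 and 14.75 in A2780s Ctrl and 14.86 and 14.89 in pCMV-Hic-5. The last 4 RNAs did not differ beyond the spread of their channels.

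PRDX2 had a higher level in each modified clone than in the Ctrl of its own line. With A_23_P142045 the mean log2 level was 13.5 in sh-S2, 13.3 in sh-S1 and 13.1 in pCMV-Hic-5, against 12.5 in SKOV3 Ctrl and 12.4 in A2780s Ctrl. The channels of the Ctrl RNAs overlapped with each other and not with those of the modified clones. Across the lines the gap was narrow, with SKOV3 Ctrl up to 13.021 in Cy5 and pCMV-Hic-5 from 13.095 in Cy3, on different slides. With A_24_P168416 the mean level was 9.74 in pCMV-Hic-5, 9.67 in sh-S2, 9.35 in A2780s Ctrl, 9.27 in sh-S1 and 8.74 in SKOV3 Ctrl, and the channels of sh-S1 overlapped with those of both Ctrl RNAs.

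For GPX3 and GPX4 the channels of every pair of neighbouring RNAs in the order of the levels overlapped. Their mean levels ran from 7.51 to 7.74 for GPX3, highest in sh-S2, and from 12.1 to 12.9 for GPX4, highest in SKOV3 Ctrl. Those of GPX2 ran from 7.49 to 7.87. PRDX3 was highest in sh-S2, at 12.9, and lowest in pCMV-Hic-5, at 12.2, and PRDX1 was highest in sh-S2, at 15.8, and lowest in sh-S1, at 15.1, again with overlapping channels between most neighbours.

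The overlapping probes of PRDX5 placed the Ctrl RNAs differently. With A_23_P12989 the mean log2 level was 13.7 in sh-S1, 13.5 in pCMV-Hic-5, 13.1 in sh-S2, 13.1 in A2780s Ctrl and 12.6 in SKOV3 Ctrl. With A_24_P155378 it was 14.2 in sh-S2, 13.8 in sh-S1, 13.5 in pCMV-Hic-5, 13.5 in SKOV3 Ctrl and 13.1 in A2780s Ctrl. With either probe each modified clone had a higher mean than the Ctrl of its own line, and the channels of most neighbouring RNAs in these orders overlapped. PRDX4, read on 1 channel in each SKOV3 clone, was at 15.3 in sh-S1 and 15.2 in sh-S2, within the range of the 2 channels of SKOV3 Ctrl, and at 14.6 in A2780s Ctrl and 14.5 in pCMV-Hic-5.

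Of the 10 member probes measured on all channels and entering in both cell lines, 5 had a mean level in the SKOV3 clones nearer to A2780s Ctrl than to SKOV3 Ctrl (GPX1, GPX4, PRDX6 and 1 probe each of PRDX2 and PRDX5), against 36.9% of 23728 probes. Across these probes, which are not independent, the levels of sh-S1 correlated with a Pearson's r of 0.905 to 0.958 with SKOV3 Ctrl and of 0.917 to 0.936 with A2780s Ctrl, comparing channels of the same dye. The levels of sh-S2 correlated with an r of 0.895 to 0.952 with SKOV3 Ctrl and of 0.923 to 0.953 with A2780s Ctrl. Levels set across cell lines are also levels set across slides.

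**Figure D2:**
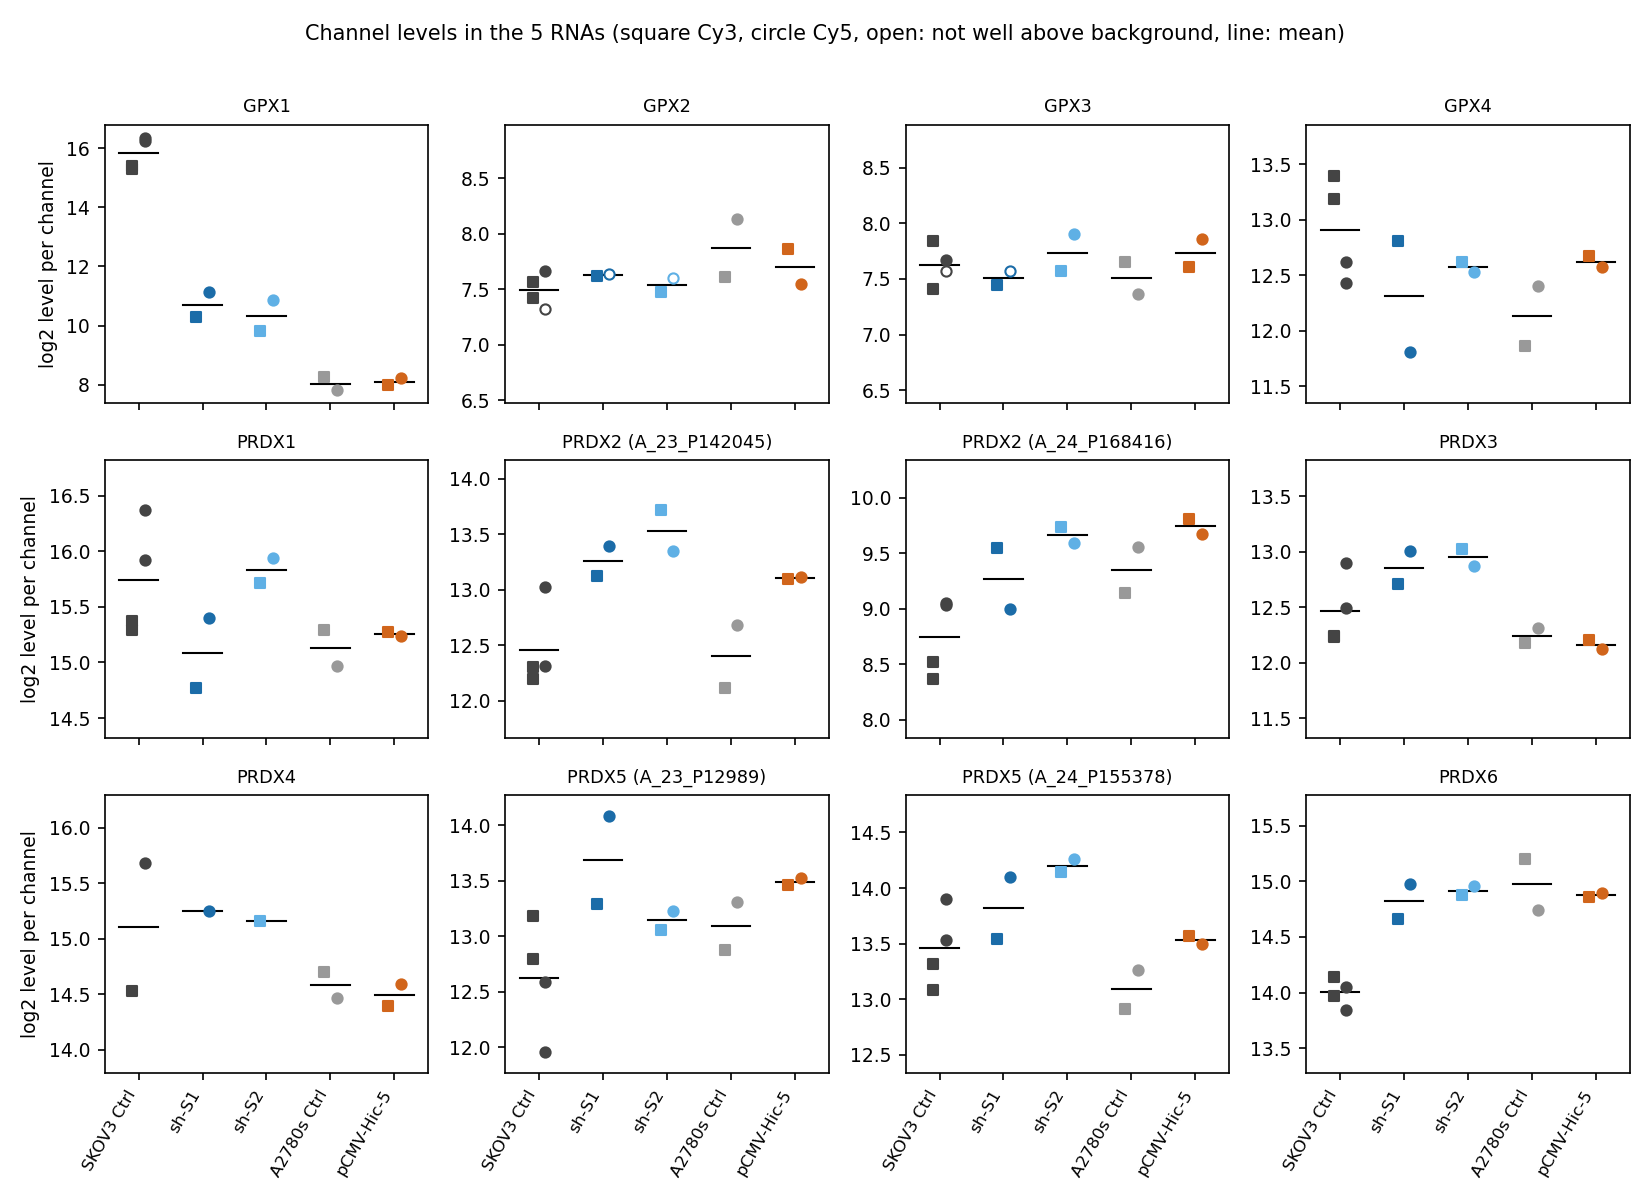
Log2 level per channel (y axis, each panel on its own scale) of the 12 probes in the 5 RNAs (x axis), with squares for Cy3, circles for Cy5, open symbols for signals not well above background and a line at the mean of each RNA. GPX1 falls from SKOV3 Ctrl over the clones sh-S1 and sh-S2 to the A2780s RNAs, and PRDX6 is lowest in SKOV3 Ctrl.

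The genes whose levels ran most like GPX1 were sought by Euclidean distance over the 12 channel levels, each probe centred on its own mean, among 23728 probes. The nearest 5 genes were TUBA4A at a distance of 1.35, S100A2 at 1.50, OCIAD2 at 1.79, MT1HL1 at 1.79 and MT2A at 1.80, where the median distance of all probes was 11.4. TUBA4A, an alpha-tubulin gene, had a mean log2 level of 15.2 in SKOV3 Ctrl, 10.8 in sh-S1, 10.7 in sh-S2 and 7.55 in A2780s Ctrl. MT2A, a metallothionein gene, had 17.0, 12.8, 12.6 and 9.78 in the same RNAs. All 5 were lower in the SKOV3 clones, with log2 ratios from -5.57 (S100A2) to -4.26 (MT2A), and none of the member genes was among them. Both follow from the search, which picked genes by these same levels, and are a description only.

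**Figure D3:**
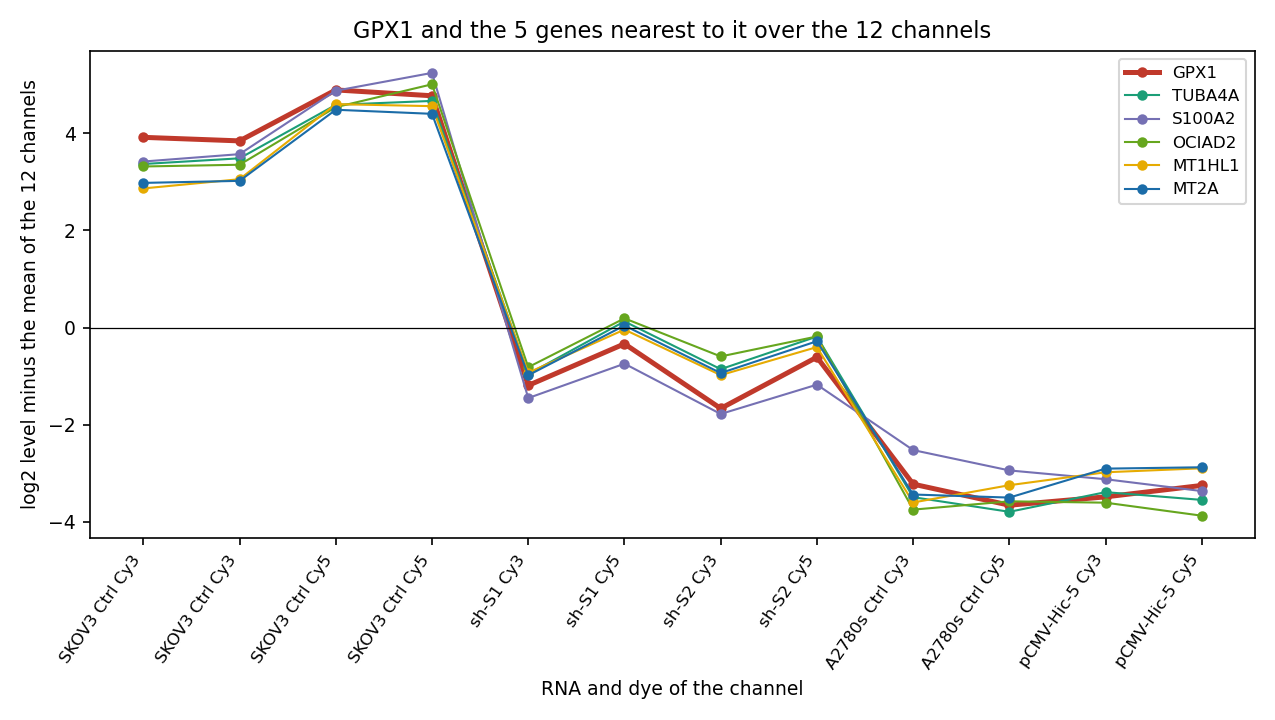
Log2 level minus the mean of the 12 channels (y axis) for GPX1 and the 5 genes nearest to it, over the RNA and dye of each channel (x axis). All 6 lines stand about 3 to 5 above 0 in SKOV3 Ctrl, near or below 0 in sh-S1 and sh-S2 and lowest in the A2780s RNAs. The 5 genes were picked by these same levels.

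The genes around these enzymes were counted in 5 lists, with the brightest tested probe per gene. Errors are SDs between the clones. Of 54 partner genes tested in SKOV3, 3 rose and 6 fell by limma's adjusted p and 2-fold, where 2.97% of all probes rose and 4.16% fell, and the median log2 ratio was 0.03. Of 55 measured in A2780s, 10 passed the 1.5-fold rule higher and 0 lower, where 3.26% and 1.32% of all probes did, and the median was 0.07 against -0.01 over all probes. The lists were chosen with earlier results of these data known, so these counts and the p-values below describe the genes and no more.

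Among the 12 genes that supply and recycle glutathione, 0 rose and 3 fell in the SKOV3 clones, and 3 passed the rule higher in A2780s. These were SLC7A11, GCLM and SLC3A2 in either line, although GCLM and SLC3A2 lay close to the 2-fold limit in SKOV3. With the mean over all tested probes of a gene they were at -0.99 and -0.98 there, short of 2-fold, and SLC7A11 alone passed the rule in both lines. SLC7A11, the cystine carrier that brings in the limiting building block of glutathione, had log2 ratios of -1.87 and -2.73 for sh-S1 and of -1.88 and -3.18 for sh-S2. The gene fell in SKOV3, with a mean of -2.41 ± 0.17 (limma's adjusted p = 1.45e-05, n = 2 clones), and in pCMV-Hic-5 it was 2.51 and 2.78. Its 3 probes ran from -2.41 to -0.64 in SKOV3 and from 1.34 to 2.65 in A2780s. SLC3A2, the heavy chain partner of SLC7A11, fell with a ratio of -1.01 ± 0.23 (n = 2 clones, adjusted p = 0.000834 by limma) and was 1.04 and 1.26 in pCMV-Hic-5.

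GCLM, the modifier subunit of the rate-limiting enzyme of glutathione synthesis, fell with a ratio of -1.07 ± 0.18 (n = 2 clones, adjusted p = 0.000492 by limma) and was 1.67 and 1.83 in pCMV-Hic-5. Of GCLM and SLC3A2, the second probe of each stayed just under 2-fold in SKOV3, at -0.91 and -0.95. Without sh-S2 GCLM was at -0.94, and without sh-S1 SLC3A2 was at -0.84, both short of 2-fold. GSR, the reductase that restores glutathione, named after its values were seen, had a ratio of 0.00 in SKOV3 and 0.30 in A2780s, and did not pass either rule. The list's median was -0.04 in SKOV3 and 0.26 in A2780s.

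Among the 12 genes of thioredoxin supply and peroxiredoxin repair, 1 rose and 1 fell in SKOV3 and 3 passed the rule higher in A2780s. TXNIP, the inhibitor of thioredoxin, fell with a ratio of -3.42 ± 0.21 (n = 2 clones, adjusted p = 5.52e-06 by limma), with all 4 arrays between -4.27 and -2.73, and was -0.43 and 0.10 in pCMV-Hic-5. SESN3, a sestrin, rose by 1.66 ± 0.18 (n = 2 clones, adjusted p = 7.7e-05 by limma), although its second probe gave 0.16 and the mean of both was 0.91, short of 2-fold. SRXN1, the sulfiredoxin that repairs overoxidized peroxiredoxins, was 1.26 and 1.42 in pCMV-Hic-5 and had a ratio of -0.80 in SKOV3, short of 2-fold. SESN2 was 0.95 and 0.57 in pCMV-Hic-5. TXNRD1, the cytosolic thioredoxin reductase, which is named here after its values were seen, was 0.45 and 0.86. TXN, the cytosolic thioredoxin, also named after its values were seen, had -0.88 in SKOV3 and 0.10 in A2780s and passed neither rule.

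Of the 8 genes of selenoprotein synthesis 0 rose and 0 fell in SKOV3, with ratios from -0.28 to 0.40. In A2780s SEPHS2, which makes the selenium donor, passed the rule at 1.18 and 1.06. Of 12 other selenoproteins, 2 rose in SKOV3. They were SELENOM, at 1.71 ± 0.16, and SELENOW, at 1.01 ± 0.16 (n = 2 clones, adjusted p = 6.23e-05 and 0.000553 by limma). SELENOW was short of 2-fold without sh-S2, at 0.90, and with median centring, at 0.89. In A2780s SELENOK was 0.96 and 1.16 and SELENOP, the selenium carrier of plasma, was 0.86 and 1.03, and SELENOS, named after its values were seen, was 0.56 and 0.97. None of these 12 was called lower in SKOV3, where 4.16% of all probes tested were.

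Of the 11 other peroxide and superoxide enzymes, 10 were tested in SKOV3, of which 0 rose and 2 fell. SOD2, the mitochondrial superoxide dismutase, fell with a ratio of -1.79 ± 0.08 (n = 2 clones, adjusted p = 3.56e-05 by limma), and its 4 arrays lay between -1.92 and -1.70. SOD3, the extracellular enzyme, fell with a ratio of -1.57 ± 0.31 (n = 2 clones, adjusted p = 0.000203 by limma), with arrays from -2.53 to -0.60. Catalase (CAT), named after its values were seen, had 0.12 in SKOV3 and -0.33 in A2780s. None of the 11 passed the rule in A2780s.

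**Figure D4:**
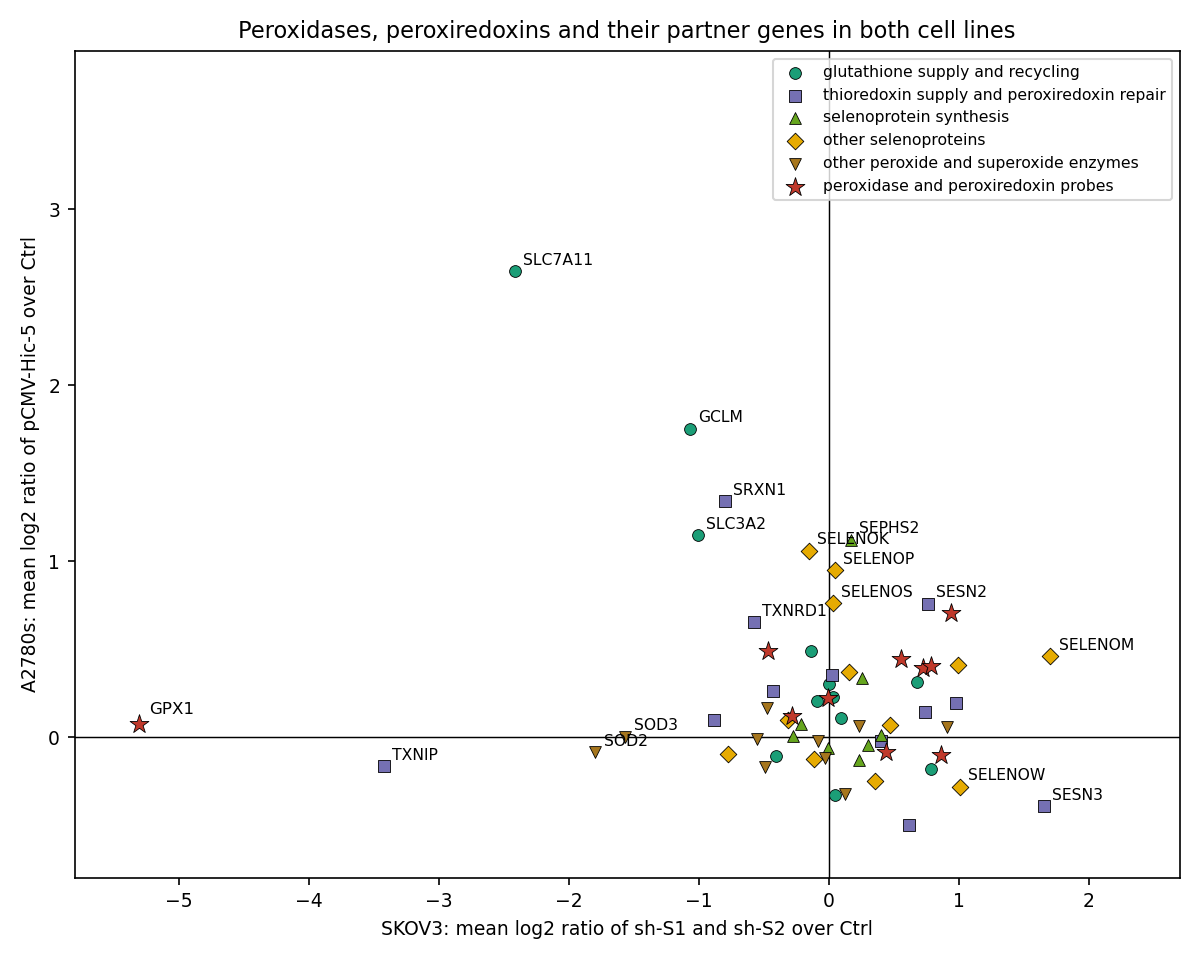
Mean log2 ratio of sh-S1 and sh-S2 over Ctrl in SKOV3 (x axis) against the log2 ratio of pCMV-Hic-5 over Ctrl in A2780s (y axis) for the partner genes by list and for the 10 tested peroxidase and peroxiredoxin probes (stars). Names are given to partners past the rule of either line and to GPX1, which lies at -5.31 and 0.07, and SLC7A11, GCLM and SLC3A2 lie low in SKOV3 and high in A2780s.

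The upstream sequence of GPX1 is shown because it is the member with the largest ratio. It covers the 250 bases before the RefSeq start of the gene (GRCh38.p14, chr3:49358354-49358603, minus strand, printed in the direction of transcription). Capitals mark a GC box motif, GGGCGG, that begins 75 bases before the start, and an E-box motif, CACGTG, that begins 24 bases before it.
GPX1 promoter: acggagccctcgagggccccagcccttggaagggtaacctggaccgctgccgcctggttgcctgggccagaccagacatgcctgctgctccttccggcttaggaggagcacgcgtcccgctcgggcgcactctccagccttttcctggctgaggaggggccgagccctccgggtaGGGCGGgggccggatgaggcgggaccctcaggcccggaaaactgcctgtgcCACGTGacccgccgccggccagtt
The table held 11 promoters for 8 of the members, all but PRDX1 and PRDX6, with several starts for GPX4 and PRDX5, some of whose sequences overlap. Searched on both strands, GGGCGG was found in 11 of these 11 promoters, against 42.6% of all 35116 promoters, and CACGTG in 3 (GPX1, PRDX3 and PRDX4), against 6.34%. TGACNNNGC, the core of the antioxidant response element bound by NRF2, was found in 1 (GPX2), against 10.9% of all promoters.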

How the data were processed

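The arrays held 45015 spots, of which 1639 were control spots. The authors deposited the mean intensity and median local background of each spot in both dyes as read by Agilent Feature Extraction (10.7.3.1 in the file header, 8.5.1.1 in the submitters' processing notes), together with processed intensities and log10 ratios of Cy5 over Cy3. The deposited series values are those log10 ratios rounded, not turned on the dye-swapped arrays, and were used with the processed intensities as alternatives.

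In limma 3.58.1 under R 4.3.3, normexp background correction used an offset of 50 and was fitted without spots that carry a background outlier flag. Control spots, outlier-flagged spots and 40 spots with a local background over 1000 were left out. Ratios were normalized by loess within arrays, averaged per probe and turned to modified clone over Ctrl. Levels were log2 intensities per channel after Aquantile normalization between arrays. A probe entered when either Ctrl on all arrays of the line or both arrays of a clone were well above background and no array was flagged. In SKOV3 limma's moderated test (lmFit, eBayes) set the 2 clone means against 0, adjusted by Benjamini-Hochberg over 24955 probes, which leaves out the spread of Ctrl. The fit and the call rules were run on simulated ratios, which did not cover the background correction, the normalization or the filter. The simulated clones had independent errors, whereas the real SKOV3 clones share a Ctrl RNA. The small number of arrays and clones limits the precision, and dye-swapped arrays of a clone correlated with an r of 0.49 to 0.61 across probes. Replicates are clones. The moderated error behind the p-values combines a probe's spread between the 2 clones with a variance pooled over all tested probes (5.55 prior degrees of freedom). The p-values rest on these clones only and do not cover the spread of further clones.

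The genes named are the 10 members with every probe, up to 4 partners per list by size of change among those past a rule, and the 5 genes nearest to GPX1; TXNRD1, SELENOS, GSR, TXN and CAT are named outside this rule, after their values were seen. Alternatives changed the background correction, the normalization, the filter, the dye orientation, the clones used, the A2780s rule and the probe per gene. The members and lists were chosen with earlier results of these data known. Promoters were read from the RefSeq table of GRCh38.p14. Figures were drawn with matplotlib.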

Additional observations from a re-analysis of the deposited data

How the results depend on the processing

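GPX1 was called lower in SKOV3 under all 9 alternatives with a test, and its direction and fold held without either clone. Because GPX1 was chosen with its ratio on these arrays known, these calls only describe how the value depends on the processing. The main processing called 1 of 10 tested member probes, 9 partner genes and 1779 of 24955 probes in SKOV3. In A2780s, 1 of 12 member probes and 1397 of 30530 probes passed. The counts of members below are to be read beside these totals, and nothing is concluded from them. On the processed signals of Feature Extraction 3 member probes were called in SKOV3 (GPX1 and both probes of PRDX2, at 1.11 and 1.36), with 18 partner genes and 4319 probes in all. On the deposited series values the counts were 3, 18 and 4316. With Cy5-labelled clones alone, 3 member probes were called in SKOV3 (GPX1, GPX4 at -1.12 and PRDX2), among 2007 probes in all. In A2780s this leaves 1 array, so only 1.5-fold was asked. There 4 member probes passed (GPX4, PRDX2 and both PRDX5 probes, which overlap), among 3316 probes in all, against 1397 under the main rule. With Cy3-labelled clones alone, 0 members passed on the 1 array left in A2780s, where 1232 probes did. None passed when 1.5-fold was asked on each A2780s array, which 618 probes passed. Leaving out sh-S2 or sh-S1 gives a fold with no test, and 1 to 2 member probes were then at least 2-fold, against 1744 to 1988 probes and 9 to 10 partner genes in all. Directions turned for members with small ratios. GPX3, at -0.0027 with the main processing, was 0.14 on the processed signals and on the series values and 0.0087 with median centring. It was 0.11 with Cy5-labelled clones alone and 0.015 without sh-S2, but kept its direction without sh-S1, at -0.020. PRDX1 was 0.33 with Cy5-labelled clones alone, and GPX4 was 0.19 with Cy3-labelled clones alone. The cause was not tested. Keeping outlier-flagged spots, which was added after seeing the data, moved no count by over 1.5 times but left SLC3A2 just short of 2-fold in SKOV3. With the mean over all tested probes of a gene 6 partner genes were called in SKOV3, against 9 with the brightest probe. The Cy5-labelled clones alone gave GCLM at -0.83, SLC3A2 at -0.83, SELENOW at 0.77 and SOD3 at -0.82 in SKOV3, all short of 2-fold. In A2780s 7 of the 10 partner genes reached 1.5-fold on each array, and TXNRD1, SESN2 and SELENOS did not. No paired analysis was possible because each ratio already sets a clone against the Ctrl on the same array, and the labels give no replicate numbers by which to pair arrays further. The dim Cy5 channel in SKOV3 limits GPX2 and GPX3.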
